A study of Mus musculus with 20 samples.

Results

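A set of 10 immediate early genes was followed through 20 RNA-seq libraries of mouse white matter. They are the AP-1 subunits Fos, Fosb, Jun and Junb, the zinc finger factors Egr1 and Egr2, the nuclear receptor Nr4a1, the synaptic effector Arc, and the regulators Ier2 and Btg2. The rows were taken by Ensembl identifier from a deposited table of 46517 genes. All 10 were present, and all 10 passed the filter on low counts in every comparison. The libraries were 5 of optic nerve from Zdhhc9 knockout mice (KO_ON), 4 of optic nerve from wild-type mice (WT_ON), 6 of corpus callosum from Zdhhc9 knockout mice (KO_CCg) and 5 of corpus callosum from wild-type mice (WT_CCg). The corpus callosum links both sides of the cortex, and the optic nerve carries the axons of retinal ganglion cells. Zdhhc9 codes for a protein palmitoyltransferase. The sample labels give its state as knockout, while the design text of the series calls it a knockdown. The labels give no age, sex, strain or details of the allele. Mice were anaesthetised with isoflurane, tissue was frozen in chilled isopentane, and the callosum was cut from frozen brain sections.

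Immediate early genes are transcribed within minutes of a stimulus without the need for new protein synthesis. Signals through calcium, cAMP and MAP kinases act on CREB and on serum response factor with its partners, which bind cAMP response elements and CArG boxes in the promoters. The products are short-lived factors, such as the Fos and Jun dimers that form AP-1, and a few effectors such as Arc. In the brain they are widely used as marks of recent neuronal activity, but glia, vascular cells and fibroblasts also induce many of them during stress, injury or handling.

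All 10 are protein-coding genes, placed here on build GRCm38. The AP-1 subunits are Fos (ENSMUSG00000021250.12) at chr12:85473890-85477273 (plus strand), Fosb (ENSMUSG00000003545.2) at chr7:19302696-19310051 (minus strand), Jun (ENSMUSG00000052684.4) at chr4:95049034-95052222 (minus strand) and Junb (ENSMUSG00000052837.5) at chr8:84974484-84978718 (minus strand). Egr1 is ENSMUSG00000038418.7, and Egr2 (ENSMUSG00000037868.14) lies at chr10:67535475-67542188 (plus strand). Chromosome 15 holds both Nr4a1 (ENSMUSG00000023034.6) at chr15:101254269-101274795 (plus strand) and Arc (ENSMUSG00000022602.13) at chr15:74669083-74672570 (minus strand). The rest are Ier2 (ENSMUSG00000053560.4) at chr8:84661331-84662852 (minus strand) and Btg2 (ENSMUSG00000020423.6) at chr1:134075170-134079120 (minus strand).

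Promoter windows from RefSeq (build GRCm38.p6, 250 bases before to 50 after the start) were matched for 7 of the 10 genes, and Egr1, Arc and Ier2 are named only. The windows of 4 genes are shown because they hold matches to response elements known in such genes and because the genes differ in how they stood between the tracts: Fos was higher in nerve in knockout mice, Fosb and Egr2 were lower in nerve, and Btg2 did not pass in either direction. The 250 bases before the start are given 5′ to 3′ on the strand of the gene. Capitals mark matches to the CArG box, to the full cAMP response element TGACGTCA or to its short form TGACG on either strand, which the full form contains.
Fos, chr12:85473640-85473889, plus strand: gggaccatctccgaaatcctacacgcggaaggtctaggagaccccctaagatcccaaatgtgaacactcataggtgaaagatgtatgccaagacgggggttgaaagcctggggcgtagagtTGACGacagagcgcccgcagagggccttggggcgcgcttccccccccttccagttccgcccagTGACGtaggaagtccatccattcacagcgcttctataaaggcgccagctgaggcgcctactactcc
Fosb, chr7:19310046-19310295, minus strand: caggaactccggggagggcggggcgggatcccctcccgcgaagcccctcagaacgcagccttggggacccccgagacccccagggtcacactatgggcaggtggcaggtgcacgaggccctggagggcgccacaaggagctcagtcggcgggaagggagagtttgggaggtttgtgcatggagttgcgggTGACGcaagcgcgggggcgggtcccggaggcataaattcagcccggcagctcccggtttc
Egr2, chr10:67537619-67537868, plus strand: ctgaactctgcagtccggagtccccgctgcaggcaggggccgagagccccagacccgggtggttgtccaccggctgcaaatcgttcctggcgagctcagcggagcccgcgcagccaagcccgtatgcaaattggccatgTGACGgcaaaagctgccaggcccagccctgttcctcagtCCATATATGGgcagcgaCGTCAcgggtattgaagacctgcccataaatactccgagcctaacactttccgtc
Btg2, chr1:134079156-134079405, minus strand: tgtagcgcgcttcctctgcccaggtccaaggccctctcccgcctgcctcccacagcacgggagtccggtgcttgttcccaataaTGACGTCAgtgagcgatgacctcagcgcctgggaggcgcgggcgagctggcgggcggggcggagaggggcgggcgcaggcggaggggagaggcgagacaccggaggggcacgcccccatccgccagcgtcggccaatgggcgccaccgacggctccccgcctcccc
The Egr2 window held CCATATATGG, a CArG box, between 2 short cAMP response elements. Egr2 has 5 RefSeq windows, and this match lies in 3 of them because those overlap. Fos held 2 copies of the short form, Fosb held 1, and Btg2 held the full form. Nr4a1, not shown, held 4 short copies and Junb 1, while none of these letters occurred in the Jun window. Of 32851 windows of this length, 1.63% held a CArG box, 1.79% the full and 20.8% the short cAMP response element, and 5.2% the AP-1 site (TGACTCA or TGAGTCA, either strand), which none of the windows of the 7 genes held. Such a match is a description of the letters and not evidence of binding.

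Total estimated counts ran from 15401130 to 26095622 per library, from 18837907 in KO_ON, 22299837 in WT_ON, 17333746 in KO_CCg and 15401130 in WT_CCg upwards. The targeted transcript checked the labels: Zdhhc9 was lower in knockout libraries, at -1.70 log2 units (edgeR SE 0.13, adjusted p = 0.00054) in nerve and -1.95 log2 units (SE 0.10, adjusted p = 1.8e-06) in callosum. Markers of mature oligodendrocytes (12 genes) summed to 58700 to 87400 CPM (counts per 1000000 of the library total) in KO_ON, 80800 to 92800 in WT_ON, 35500 to 67000 in KO_CCg and 56100 to 85000 in WT_CCg. Neuron markers (18 genes) summed to 335 to 621 CPM in KO_ON and 259 to 667 CPM in WT_ON, against 2250 to 9190 CPM in KO_CCg and 1830 to 6440 CPM in WT_CCg. Fibroblast and meningeal markers (8 genes) summed to 2220 to 3850 CPM in KO_ON and 1940 to 3630 CPM in WT_ON, against 70.9 to 95.3 CPM in KO_CCg and 69.7 to 103 CPM in WT_CCg. The tracts thus carried unlike RNA of other cell types, and the part of these differences in the results that follow was not tested. The labels do not say that libraries came from separate animals, so p-values measure the spread between these libraries.

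Per kilobase of merged exon, the order of the 10 genes differed between the tracts. In WT_ON, Jun stood first at 39.8 ± 2.66 CPM per kb (SD, n = 4). Arc followed at 9.36, then Fos at 7.96, Btg2 at 7.26, Junb at 6.73, Ier2 at 6.16 and Nr4a1 at 5.32 CPM per kb. Those 6 neighbours overlapped in their library ranges and were not separated by their spread. Egr1 averaged 2.81 CPM per kb there, and Fosb (0.193) and Egr2 (0.190) closed the order at nearly the same level. In WT_CCg the first places went to Arc at 40.7 ± 11.1 and Jun at 39.6 ± 5.49 CPM per kb (SD, n = 5), which overlapped. Egr1 (19.9), Junb (15.5) and Nr4a1 (13.2 CPM per kb) came next with overlapping neighbours, and stood apart from Btg2 (7.78), Fos (6.20) and Ier2 (4.01), each of which overlapped its neighbour. Egr2 (1.96) and Fosb (0.964 CPM per kb) overlapped and were last. The knockout groups had the same genes at the ends: Jun led KO_ON at 48.4 ± 1.89 CPM per kb (SD, n = 5), while Arc at 44.2 ± 13.6 and Jun at 36.8 ± 6.30 CPM per kb (SD, n = 6) led KO_CCg.

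**Figure D1:**
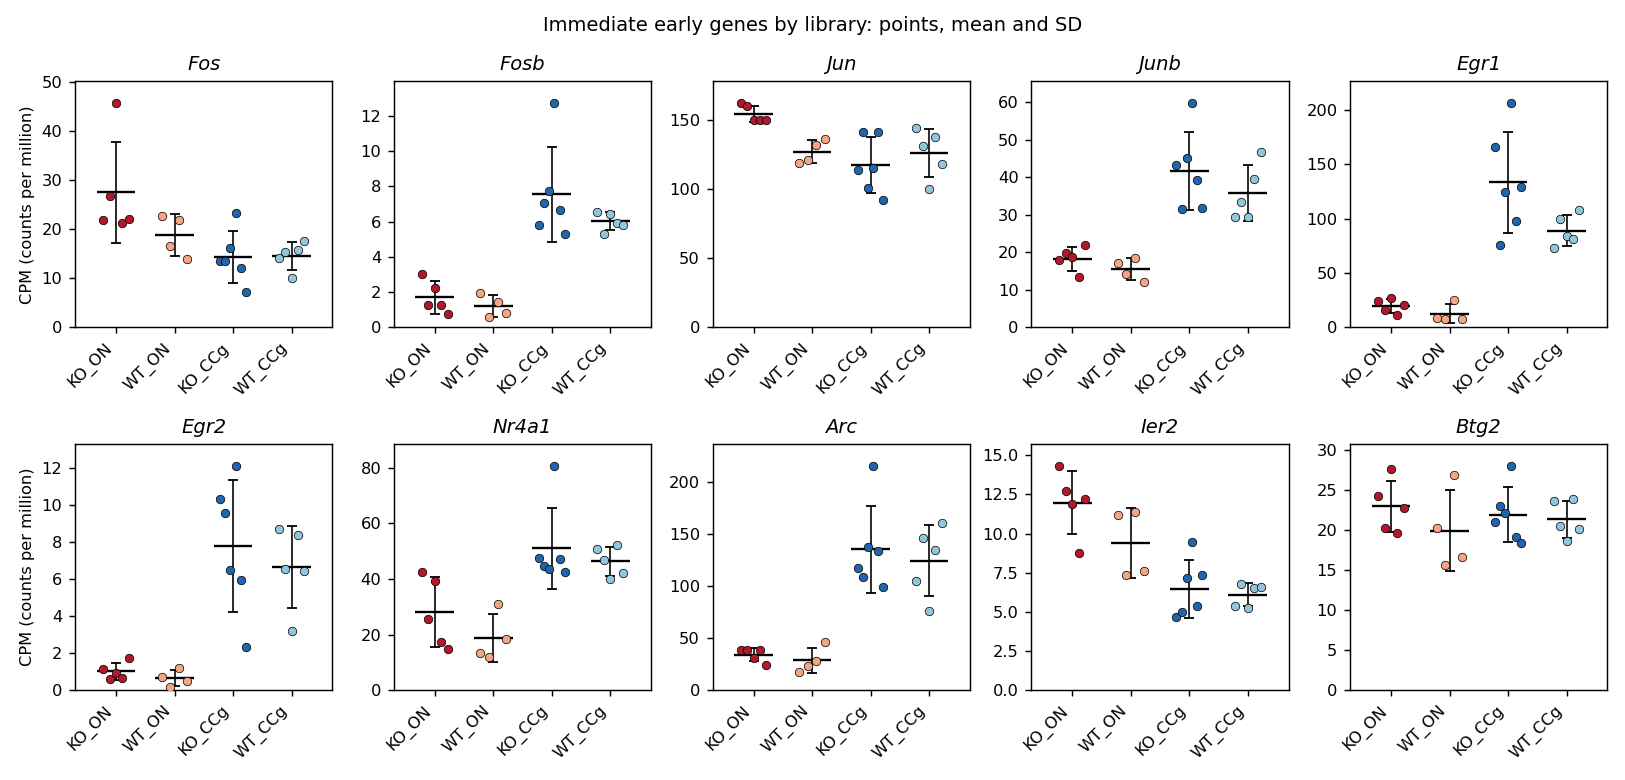
CPM of the 10 genes in each library (points), with the group mean (bar) and SD (whisker), for 5 KO_ON, 4 WT_ON, 6 KO_CCg and 5 WT_CCg libraries. Fosb, Junb, Egr1, Egr2 and Arc sit below all callosum libraries of their genotype in every nerve library, while Fos, Ier2 and Jun do not.

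The first comparison asked how the tracts differ, and the 10 genes did not all stand alike. In wild-type mice 6 of the 10 genes were lower in optic nerve than in corpus callosum (Fosb, Junb, Egr1, Egr2, Nr4a1, Arc), and none was higher, at an adjusted p under 0.05 and a change of at least 1 log2 unit. Of all 16440 genes tested, 13.2% passed as lower and 13.0% as higher. In knockout mice 5 were lower (Fosb, Junb, Egr1, Egr2, Arc) and Fos was higher, where 15.2% of all genes passed as lower and 14.9% as higher. The median log2 fold change of the 10 genes was -0.94 in knockout and -1.21 in wild-type mice, and that of all genes was 0 in knockout and -0.03 in wild-type mice. All tissue values are edgeR log2 fold changes of nerve over callosum with adjusted p over all genes tested. In bulk tissue, fewer cells of a type and less RNA per cell cannot be told apart. Collection also differed with tract, since the labels give frozen sections for the callosum libraries only. Tract and collection thus cannot be told apart in any of these values.

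The Fos family split. Fos, the founding AP-1 partner of the Jun proteins, had 21.8, 26.7, 45.6, 21.2 and 22.1 CPM in KO_ON, against a lowest of 7.25, a median of 13.6 and a highest of 23.2 CPM in KO_CCg. It had 22.7, 16.5, 21.9 and 13.9 CPM in WT_ON, against 14.1, 15.4, 10, 15.8 and 17.6 CPM in WT_CCg. Both pairs overlapped, and 2 of 5 knockout and 2 of 4 wild-type nerve libraries lay above every callosum library of their genotype. Fos rose by 1.02 (SE 0.24, adjusted p = 0.000982) in knockout nerve, and stood at 0.40 (SE 0.27, adjusted p = 0.221) in wild-type nerve. The knockout call rests on single libraries, since the value fell under 1 without KO_ON_693452 (0.79), KO_CCg_27 (0.97), KO_CCg_717651 (0.98) or KO_CCg_719856 (0.86), and with limma-voom with sample quality weights (0.86). Fosb, whose product also pairs with Jun proteins and has a long-lived splice form, went the other way. It had 3.05, 1.25, 2.23, 1.27 and 0.743 CPM in KO_ON, against 5.29 to 12.7 CPM with a median of 6.85 in KO_CCg. It had 1.95, 0.60, 1.46 and 0.807 CPM in WT_ON, against 6.56, 5.32, 6.45, 5.95 and 5.82 CPM in WT_CCg. All nerve libraries lay below all callosum libraries, with log2 fold changes of -2.04 (SE 0.33, adjusted p = 1.82e-05) in knockout and -2.27 (SE 0.37, adjusted p = 3.57e-05) in wild-type mice. For every 100 counts of Fos there were 3.36 to 14.0 counts of Fosb in KO_ON and 3.65 to 8.60 in WT_ON, against 43.0 to 73.0 in KO_CCg and 33.1 to 64.2 in WT_CCg.

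Of the Jun genes followed here, Junb passed as lower in nerve in both genotypes and Jun passed in neither. Jun, which binds AP-1 sites as a homodimer or with Fos proteins, had 162, 160, 150, 150 and 150 CPM in KO_ON, against 92.3 to 141 CPM with a median of 115 in KO_CCg. It had 119, 121, 132 and 136 CPM in WT_ON, against 144, 131, 100, 138 and 118 CPM in WT_CCg. Knockout nerve libraries all lay above knockout callosum libraries, and the wild-type groups overlapped. The log2 fold change was 0.49 (SE 0.12, adjusted p = 0.00161) in knockout mice, below the size asked for, and 0.05 (SE 0.13, adjusted p = 0.771) in wild-type mice. Junb, a weaker activator that can oppose Jun, had 17.9, 19.7, 18.7, 13.3 and 21.9 CPM in KO_ON, against 31.4 to 59.6 CPM with a median of 41.2 in KO_CCg. It had 17.1, 14.2, 18.6 and 12.1 CPM in WT_ON, against 29.5, 33.5, 29.4, 39.6 and 46.8 CPM in WT_CCg. The tracts did not overlap in either genotype, and Junb was lower in nerve by -1.09 (SE 0.17, adjusted p = 1.58e-05) in knockout and -1.16 (SE 0.19, adjusted p = 4.24e-05) in wild-type mice. In knockout mice it lost the size threshold without KO_CCg_693452 (-0.96) or KO_ON_717651 (-1.0). Junb per 100 counts of Jun came to 8.89 to 14.5 in KO_ON and 8.85 to 14.4 in WT_ON, against 22.2 to 51.7 in KO_CCg and 20.5 to 39.8 in WT_CCg. The 3′ end of Junb overlaps Prdx2 on the opposite strand and Jun overlaps the antisense gene Junos. The library kit kept strand, but the strand setting of the counting is not given in the sources used here, so sharing of reads is uncertain. Prdx2 averaged 131 CPM in KO_ON and 128 in WT_ON, against 154 in KO_CCg and 147 in WT_CCg, and Junos was listed at 0 in every library.

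The Egr genes had the widest gaps. Egr1, a zinc finger activator that follows MAP kinase signalling, had 24.7, 15.8, 27.5, 11.9 and 20.3 CPM in KO_ON, against 76.0 to 206 CPM with a median of 127 in KO_CCg. It had 8.81, 7.88, 25.6 and 8.16 CPM in WT_ON, against 73.4, 99.4, 83.7, 80.9 and 108 CPM in WT_CCg. The log2 fold change was -2.64 (SE 0.31, adjusted p = 4.18e-07) in knockout and -2.78 (SE 0.35, adjusted p = 1.69e-06) in wild-type mice. Egr2, the relative that drives myelination in Schwann cells of peripheral nerve, had 1.12, 0.625, 0.902, 0.663 and 1.75 CPM in KO_ON, against 2.33 to 12.1 CPM with a median of 8.04 in KO_CCg. It had 0.728, 0.16, 1.19 and 0.493 CPM in WT_ON, against 8.70, 6.55, 3.18, 8.39 and 6.41 CPM in WT_CCg. The changes were -2.85 (SE 0.45, adjusted p = 1.43e-05) in knockout and -3.33 (SE 0.52, adjusted p = 1.91e-05) in wild-type mice, and no nerve library reached the lowest callosum library for either gene.

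Arc was lower in nerve in both genotypes, and Nr4a1 passed as lower in wild-type mice. Nr4a1, an orphan nuclear receptor, had 42.6, 25.5, 39.4, 17.3 and 14.9 CPM in KO_ON, against 42.3 to 80.5 CPM with a median of 45.9 in KO_CCg. It had 13.5, 11.8, 31.0 and 18.3 CPM in WT_ON, against 50.9, 46.8, 40.1, 52.0 and 42.0 CPM in WT_CCg. Of the knockout nerve libraries, 1 reached into the callosum range, and the wild-type groups were separate. The log2 fold change was -0.78 (SE 0.27, adjusted p = 0.0168) in knockout mice, under the size asked for, and -1.27 (SE 0.31, adjusted p = 0.00163) in wild-type mice. The knockout value passed at -1.24 with a replicate block over the 3 knockout sample numbers found in both tissues, a fit of those 6 libraries alone, and at -1.09 with sample numbers of 6 or 7 digits only. Their difference was 0.49 (SE 0.40, adjusted p = 0.819), so a difference between the genotypes was not shown. Arc, which sits at synapses and promotes the uptake of AMPA receptors, had 38.7, 38.2, 31.2, 38.4 and 24.0 CPM in KO_ON, against 99.1 to 215 CPM with a median of 126 in KO_CCg. It had 17.4, 23.5, 27.7 and 45.9 CPM in WT_ON, against 105, 146, 75.9, 135 and 160 CPM in WT_CCg. Without overlap in either genotype, Arc changed by -1.90 (SE 0.26, adjusted p = 2.17e-06) in knockout and -2.06 (SE 0.29, adjusted p = 5.08e-06) in wild-type mice.

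Ier2 was higher in nerve by less than the size asked for, and Btg2 did not pass in either direction. Ier2, a nuclear protein of growth factor responses, had 14.3, 12.7, 11.9, 8.77 and 12.2 CPM in KO_ON, against 4.64 to 9.47 CPM with a median of 6.25 in KO_CCg. It had 11.2, 7.36, 11.4 and 7.58 CPM in WT_ON, against 5.39, 6.76, 5.25, 6.54 and 6.59 CPM in WT_CCg. The wild-type groups were separate, and 4 of 5 knockout nerve libraries lay above all knockout callosum libraries. Its log2 fold change was 0.97 (SE 0.18, adjusted p = 8.9e-05) in knockout and 0.66 (SE 0.20, adjusted p = 0.00873) in wild-type mice, both under 1 log2 unit. The knockout value passed without KO_CCg_693452 (1.12) or KO_ON_717651 (1.07), and with upper quartile factors (1.01). Btg2, an antiproliferative protein that binds the CCR4-NOT deadenylase, averaged 23.0 ± 3.24 CPM in KO_ON and 21.9 ± 3.43 CPM in KO_CCg (SD, n = 5 and 6). In wild-type mice it averaged 19.9 ± 5.06 CPM in nerve and 21.4 ± 2.28 CPM in callosum (SD, n = 4 and 5). The changes were 0.16 (95% interval -0.13 to 0.44) in knockout and -0.06 (-0.38 to 0.26) in wild-type mice. Counted by overlap alone, 5 genes in knockout and 6 in wild-type mice had every nerve library below every callosum library, beside 23.2% and 22.2% of all genes. Jun in knockout and Ier2 in wild-type mice had every nerve library above, beside 20.6% and 20.3% of all genes.

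**Figure D2:**
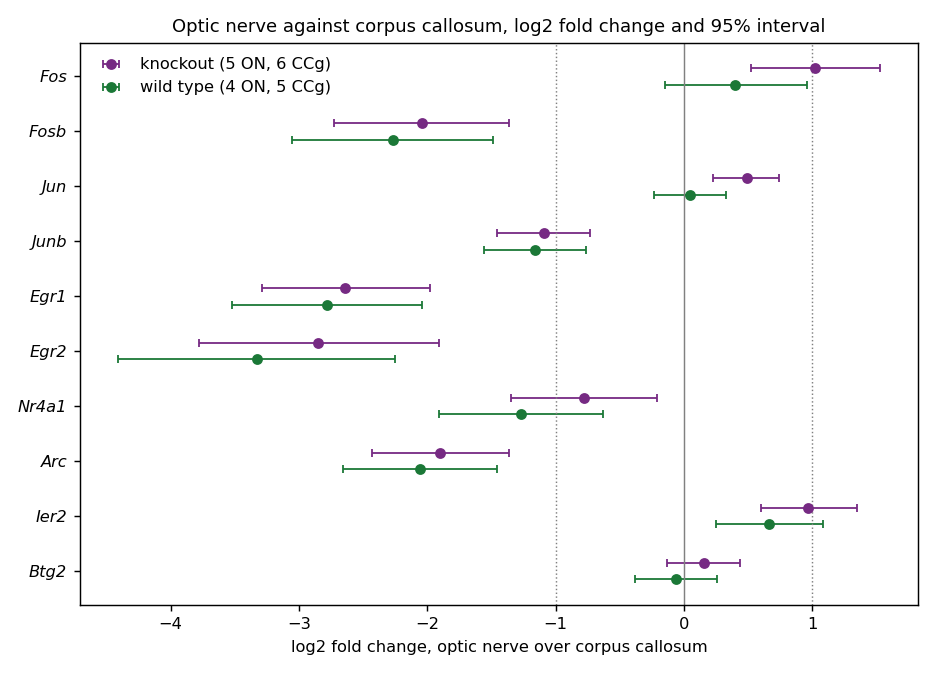
Log2 fold change of optic nerve over corpus callosum with its 95% interval (edgeR) for the 10 genes, in knockout (5 against 6 libraries) and wild-type mice (4 against 5). Dotted lines mark 1 log2 unit; Egr2 (-2.85 and -3.33) and Egr1 (-2.64 and -2.78) lie farthest below 0, and Fos (1.02 and 0.40) and Ier2 (0.97 and 0.66) above it.

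Related genes outside the 10 were counted by list. Beside these counts, 15.2% of all genes passed as lower and 14.9% as higher in knockout nerve. In wild-type nerve the shares were 13.2% and 13.0%. Of 12 neuronal activity genes, 9 were lower in nerve in both genotypes and none was higher, with a median log2 fold change of -2.38 in knockout and -2.50 in wild-type mice. Npas4, an activity-dependent factor of neurons, averaged 0.778 CPM in KO_ON and 0.632 in WT_ON, against 19.5 in KO_CCg and 12.8 in WT_CCg. Its log2 fold change was -4.55 (SE 0.29) in knockout and -4.29 (SE 0.32) in wild-type mice, beside Homer1, a synaptic scaffold, at -3.04 and -2.46. Inhba, an activin subunit, was at -2.56 and -2.53, and Dusp4, a MAP kinase phosphatase, at -2.14 and -2.70. Of 6 other Egr, Nr4a and Nab genes, 3 were lower in both genotypes and none was higher. Egr3 was lower by -5.02 in knockout and -4.36 in wild-type mice, and Nr4a3 by -2.39 and -2.22. Egr4 had 1 to 7 counts per library in KO_ON and 0 to 15 in WT_ON, against 246 to 818 in KO_CCg and 292 to 658 in WT_CCg. Nr4a2 was at -0.98 and -0.87, short of the size asked for.

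Of 10 other AP-1 and bZIP partners, 5 were higher in nerve in knockout and 4 in wild-type mice, and none was lower. Atf3, a stress-induced bZIP factor, averaged 12.8 CPM in KO_ON and 9.21 in WT_ON, against 1.49 in KO_CCg and 2.0 in WT_CCg. Its log2 fold change was 3.19 (SE 0.29) in knockout and 2.25 (SE 0.31) in wild-type mice. Batf3 (3.88 and 3.49) and Maff (3.16 and 2.82) were higher in both genotypes. Batf passed in both genotypes as well, at 4.04 in knockout and 3.74 in wild-type mice, from callosum counts near 0. It had 22 to 57 counts per library in KO_ON and 13 to 39 in WT_ON, against 0 to 5 in KO_CCg and 0 to 3 in WT_CCg. Mafk passed in knockout mice at 1.1 and stood at 0.46 in wild-type mice, and the difference between the genotypes was 0.64 (SE 0.17, adjusted p = 0.725). Of 33 other rapid primary response genes, 10 were higher and 2 lower in knockout nerve, and 9 higher and 2 lower in wild-type nerve. Socs3, which restrains cytokine signalling, changed by 2.63 in knockout and 2.47 in wild-type mice, and Gadd45b, a stress-response gene, by 2.41 and 2.61. Klf2, a factor typical of endothelium, was at 2.59 in knockout and 1.7 in wild-type mice and Ier3 at 2.09 and 2.32, while the kinase gene Plk2 was lower at -2.59 and -1.94. Of 13 upstream regulators, 1 was higher and 5 lower in knockout nerve, and 1 higher and 3 lower in wild-type nerve. The list counts of this paragraph stand beside 14.9% higher and 15.2% lower of all genes in knockout nerve. In wild-type nerve the shares were 13.0% and 13.2%. The ternary complex factor Elk3 stood at 1.24 and 1.22, and the serum response factor coactivator Mrtfb at -1.62 and -1.12. Mef2c (-3.04 in knockout and -2.05 in wild-type mice) and the CREB coactivator Crtc1 (-1.2 and -1.04) were lower in both genotypes. Elk1 was at -1.1 in knockout and -0.73 in wild-type mice, where the wild-type value was under the size asked for.

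**Figure D3:**
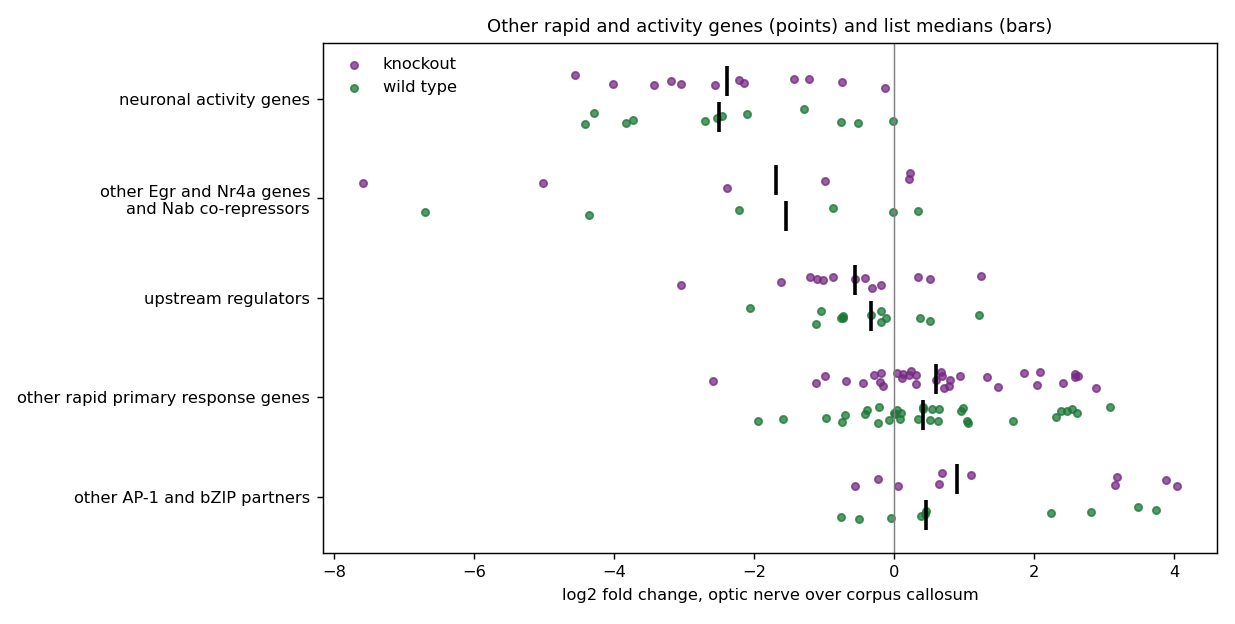
Log2 fold change of optic nerve over corpus callosum for each tested gene of 5 lists (points) with the list median (bars), knockout above wild type. Neuronal activity genes have medians of -2.38 and -2.50, while other AP-1 and bZIP partners have medians of 0.90 and 0.45.

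The next comparison asked whether the loss of Zdhhc9 moved these genes in optic nerve. None of the 10 passed an adjusted p of 0.05 by edgeR, where 0.0129% of 15556 genes did (2 genes, with 852 at an unadjusted p under 0.05). DESeq2 and limma-voom, with or without sample quality weights, likewise called 0 of the 10. All 10 estimates were above 0, from 0.20 to 0.68 with a median of 0.42, while 52.8% of all genes had a positive value and their median was 0.01. These genes share libraries and vary together, so the 10 signs are not 10 independent observations. Summed over the genes, the level was 320 ± 33.2 CPM in KO_ON and 252 ± 34.8 CPM in WT_ON (SD, n = 5 and 4).

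Jun had the smallest p of the 10. Its 5 knockout libraries (150 to 162 CPM) all lay above its 4 wild-type libraries (119 to 136 CPM), which held in this direction for 1.13% of all genes and in the opposite direction for 0.881%, none of them among the 10. The log2 fold change was 0.27 (SE 0.08, 95% interval 0.10 to 0.44), with an unadjusted edgeR p of 0.00463 and an adjusted p of 0.845. Over the alternatives tried the value stayed between 0.23 and 0.33, and the adjusted p was 0.136 at the lowest and 1 at the highest. Of the knockout nerve libraries, 2 carry sample numbers with a letter, a form that no wild-type nerve library has, and without them the value was 0.24. Fos came next at 0.55 (SE 0.23, 95% interval 0.04 to 1.05), with an unadjusted p of 0.0357 and an adjusted p of 0.845. Its highest library, KO_ON_693452 at 45.6 CPM, stood well apart from the 21.2 to 26.7 CPM of the other knockout nerves, and the estimate without it was 0.29. The remaining estimates were Egr1 0.68 (-0.11 to 1.46), Egr2 0.65 (-0.46 to 1.77), Nr4a1 0.58 (-0.18 to 1.34) and Fosb 0.50 (-0.48 to 1.49), with 95% intervals. Ier2 was at 0.35 (-0.02 to 0.71), Junb at 0.24 (-0.10 to 0.57), Arc at 0.23 (-0.33 to 0.79) and Btg2 at 0.20 (-0.13 to 0.53). Single libraries moved several of these by over 1.5 times. Without WT_ON_717652, Egr1 was at 1.25, Egr2 at 1.11, Nr4a1 at 0.91 and Btg2 at 0.36. Without WT_ON_701297, Egr2 was at 0.33, Fosb at 0.29 and Btg2 at 0.11. Leaving out each library in turn gave 0.51 to 1.25 for Egr1, 0.33 to 1.11 for Egr2, 0.38 to 0.91 for Nr4a1, 0.20 to 0.83 for Fosb, 0.05 to 0.58 for Arc and 0.15 to 0.32 for Junb, all above 0. For Egr1, Egr2, Nr4a1 and Fosb the 95% intervals over all libraries reach from decreases to increases of over 1 log2 unit. These libraries thus leave the direction and such sizes undecided. Neuron markers in these nerves summed to a median of 510 CPM in KO_ON (335 to 621) and 303 CPM in WT_ON (259 to 667). Of their 18 genes 14 had positive estimates and none passed, with a median log2 fold change of 0.38 beside the 0.42 of the 10 genes, and their part in these values was not tested. Photoreceptor and retinal neuron markers (8 genes) summed to 73.97 CPM in KO_ON_719856. The KO_ON median was 25.2 CPM and WT_ON ran from 18.2 to 25.6 CPM, and the part of these markers was not tested either.

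In corpus callosum, again none of the 10 passed, beside 0.0387% of 15519 genes (6 genes, with 1816 at an unadjusted p under 0.05), and DESeq2 and limma-voom called 0 of the 10. Estimates were above 0 for 7 genes and below 0 for 3, with a median of 0.08. Of all genes, 47.5% had a positive value and their median was -0.01. No gene had groups that did not overlap, which 0.193% of all genes had with knockout above and 0.670% with knockout below. Egr1 had the smallest p: 166, 76.0, 125, 206, 98.2 and 129 CPM in KO_CCg (median 127), against 73.4, 99.4, 83.7, 80.9 and 108 CPM in WT_CCg. Of these, 4 of 6 knockout libraries lay above every wild-type library. The log2 fold change was 0.54 (SE 0.22, 95% interval 0.06 to 1.01), with an unadjusted edgeR p of 0.0299 and an adjusted p of 0.403. Over the alternatives it lay between 0.36 and 0.65, and adjusted p lay between 0.798 and 0.0531, the lowest being that of limma-voom with sample quality weights, which weighted KO_CCg_693451 and KO_CCg_693452 at 3.18 and 2.33 and called 2786 genes in all, against 3 without weights. Within libraries whose sample numbers have 6 or 7 digits it was 0.60, and within those of 2 digits it was 0.43. Neuron markers summed to a median of 6960 CPM in KO_CCg and 3350 CPM in WT_CCg beside it, and their part in the Egr1 value was not tested.

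The other 9 callosum estimates lay between -0.15 and 0.28. Fosb stood at 0.28 (95% interval -0.18 to 0.74), Junb at 0.18 (-0.21 to 0.56), Egr2 at 0.18 (-0.63 to 0.99) and Nr4a1 at 0.09 (-0.29 to 0.47). Arc was at 0.07 (-0.42 to 0.57), Ier2 at 0.04 (-0.37 to 0.45), Btg2 at -0.01 (-0.29 to 0.27), Fos at -0.07 (-0.61 to 0.46) and Jun at -0.15 (-0.47 to 0.17). Without KO_CCg_693452, Fosb was at 0.06, Junb at 0.04 and Egr1 at 0.36. Knockout library KO_CCg_693452 held the highest level of 9 of the 10 genes in its group and summed to 761 CPM over them, while KO_CCg_719856 held the lowest level of 7 genes and summed to 435 CPM. In WT_CCg, library WT_CCg_685232 held the lowest level of 8 genes and summed to 373 CPM.

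**Figure D4:**
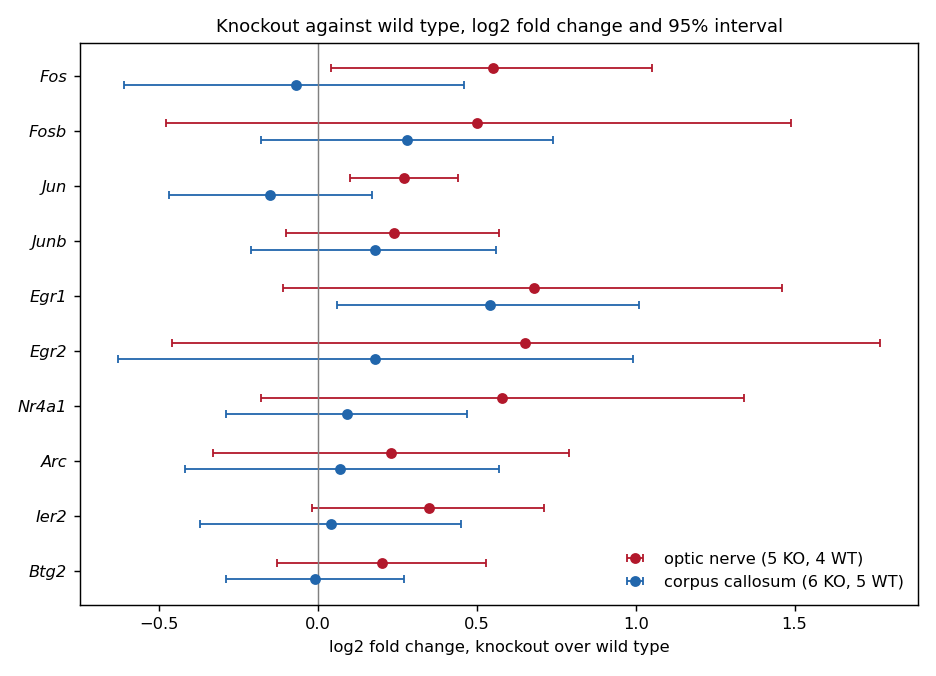
Log2 fold change of knockout over wild type with its 95% interval (edgeR) for the 10 genes, in optic nerve (5 against 4 libraries) and corpus callosum (6 against 5). In nerve the estimates run from 0.20 to 0.68 and in callosum from -0.15 to 0.54, and none passed an adjusted p of 0.05.

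The difference of the knockout effect between the tracts was tested directly in a fit of all 20 libraries. None of the 10 passed, nor did any of the 16440 genes (0%, with 1123 at an unadjusted p under 0.05, and 0 calls by DESeq2 and limma-voom). All 10 differences, nerve minus callosum, were above 0, with a median of 0.27, beside 54.0% of all genes and a median of 0.03. Jun had the smallest p, with a difference of 0.43 (SE 0.18, unadjusted p = 0.0271, adjusted p = 0.725). Fos was at 0.62 (SE 0.36) and Nr4a1 at 0.49 (SE 0.40), while Junb (0.07) and Egr1 (0.14) differed least.

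In the lists of related genes, none passed in either genotype comparison. In nerve, all 10 other AP-1 and bZIP partners had positive estimates with a median of 0.22, where 52.8% of all genes were positive. In callosum 9 of this list were tested, with 2 positive, 7 negative and a median of -0.09. Those with the smallest p in nerve were Fosl2 (0.35, SE 0.14), Jdp2 (0.24, SE 0.10) and Jund (0.20, SE 0.09). Among other rapid genes in nerve, Sgk1, a kinase gene induced by glucocorticoids, stood at -0.84 (SE 0.22), Myc at 0.43 (SE 0.16) and Ccn1, a secreted matrix protein gene, at 0.56 (SE 0.25). Neuronal activity genes in nerve were at 0.62 for Dusp4, 1.24 for Bdnf and 1.08 for Nptx2, with SE of 0.33, 0.76 and 0.72. Counts were low, at 5 to 18 per library in KO_ON and 0 to 11 in WT_ON for Bdnf. For Nptx2 they were 6 to 87 in KO_ON and 7 to 29 in WT_ON. Nab2 (0.26), Nr4a2 (0.33) and Nab1 (-0.11) had the smallest p among the Egr and Nr4a relatives, and Crtc1 (0.29), Mef2c (-0.27) and Srf (0.15) among upstream regulators. In callosum, all 12 neuronal activity genes had positive estimates with a median of 0.39. Among them were Homer1 (0.62, SE 0.21), Npas4 (0.56, SE 0.20) and Scg2 (0.57, SE 0.33), beside the higher neuron marker sums given above. All 18 neuron markers were also positive there and none passed, with a median of 0.65, where 47.5% of all genes were positive. Egr3 (0.77, SE 0.22) and Nr4a3 (0.52, SE 0.29) were positive and Nab1 (-0.33, SE 0.12) negative. Klf2 (-0.73, SE 0.14), Nfkbia (-0.54, SE 0.13) and Mafk (-0.60, SE 0.12) had the smallest p of the rapid genes and bZIP partners, ahead of Plk2 (0.64, SE 0.20), Atf3 (-0.47, SE 0.34) and Maff (-0.32, SE 0.25). Mrtfb (0.58), Mef2a (0.32) and Elk1 (0.33) had the smallest p of the upstream regulators.

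Within groups the 10 genes varied unequally from library to library. The SD of log2 CPM about the group means was 0.44 at the median of the 10 genes and 0.25 at that of all 16440 genes. Egr2 (0.77, percentile 92.6 of all genes), Fosb (0.54, percentile 82.0) and Egr1 (0.52, percentile 80.5) varied most. Egr2 and Fosb are also the lowest in counts in nerve. In callosum alone the SD was 0.76 for Egr2, 0.35 for Fosb and 0.32 for Ier2. These genes averaged 7.78, 7.55 and 6.49 CPM in KO_CCg and 6.65, 6.02 and 6.11 CPM in WT_CCg, in that order. Jun (0.21, percentile 36.4) and Btg2 (0.23, percentile 43.9) varied least. In nerve alone the SD of Jun was 0.09 (percentile 6.66), against 0.63 (percentile 88.8) for both Egr1 and Nr4a1.

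Most pairs of the genes deviated together. Pairs of other genes were not counted, so this is not shown to be particular to the 10. With group means taken off, Pearson's r was positive for 34 of 45 pairs in nerve (median 0.37, 9 libraries) and 43 of 45 in callosum (median 0.57, 11 libraries), a description of libraries that share depth and cell makeup. The highest r was 0.94 for Egr1 and Btg2 in nerve and 0.87 for Junb and Arc in callosum, and the lowest was -0.63 for Fos and Jun in nerve and -0.38 for Jun and Egr1 in callosum. Against the mean of the 10 genes over 20 libraries, the most alike of 13545 other genes were Dusp1 (r = 0.79), Ccn1 (0.78), Cdh24 (0.76), Tal1 (0.74) and Rpl10 (0.74). Dusp1, a MAP kinase phosphatase gene and itself rapidly induced, averaged 45.7 CPM in KO_ON and 31.9 in WT_ON, against 29.6 in KO_CCg and 25.9 in WT_CCg.

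The marker relations that passed in callosum were those of Jun. Of 120 relations between the 10 genes and 12 cell type marker sums there, with group means taken off, 3 passed after Benjamini-Hochberg adjustment of the exact two-sided permutation p over 86400 within-genotype orderings, and all 3 were of Jun. With mature oligodendrocyte markers r was 0.96 (adjusted permutation p = 0.00417) and Spearman's rho 0.97 (adjusted permutation p = 0.00694). Leaving out the 2 libraries farthest from the median marker sum, r was 0.96, and within the libraries with sample numbers of 6 or 7 digits it was 0.99. With oligodendrocyte precursor markers r was 0.90 (adjusted permutation p = 0.0389) and rho 0.89 (adjusted permutation p = 0.0671). With neuron markers r was -0.85 (adjusted permutation p = 0.0389) and rho -0.90 (adjusted permutation p = 0.00764). Both held without the 2 farthest libraries, at r of 0.85 and -0.84, and within sample numbers of 6 or 7 digits, at 0.90 and -0.89. The unadjusted permutation p values of the 3 r were 3.47e-05, 0.000833 and 0.000972. These marker sums were not independent, with neuron markers opposite to the others, so the relations are not 3 separate results. Oligodendrocyte, precursor and neuron sums were 67010, 1652 and 2254 CPM in KO_CCg_29, against 35480, 1077 and 9193 in KO_CCg_719856. In wild-type callosum they were 85010, 1788 and 1830 CPM in WT_CCg_28, against 56070, 1329 and 6437 in WT_CCg_685232. The library with the most oligodendrocyte RNA in each callosum group had a Jun level at the top of its group (141 CPM in KO_CCg and 144 CPM in WT_CCg), and the library with the least had the lowest (92.3 CPM and 100 CPM). In nerve none of 120 relations passed, and Jun had r of -0.14 with mature oligodendrocyte markers over 9 libraries (unadjusted exact permutation p = 0.691). Egr1 had r of 0.62 with neuron markers in nerve and 0.58 in callosum, with adjusted permutation p of 0.545 and 0.547. The relations used log2 values, with TMM scaling for the 10 genes but not for the marker sums. Both come from the same library totals, and the part of this in the relations was not tested.

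**Figure D5:**
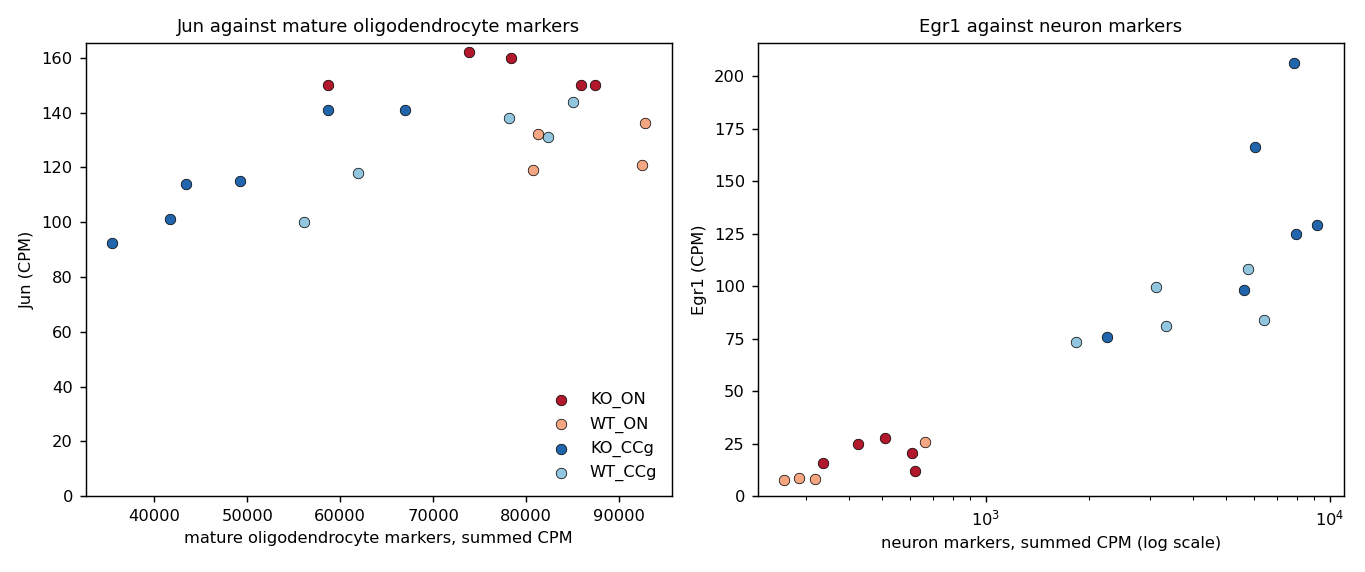
Jun (CPM) against summed mature oligodendrocyte markers (CPM, left) and Egr1 (CPM) against summed neuron markers (CPM, log axis, right), 1 point per library of 5 KO_ON, 4 WT_ON, 6 KO_CCg and 5 WT_CCg. Callosum points of Jun climb with the oligodendrocyte sum within each genotype, while nerve points do not. For log2 values with group means taken off and both genotypes pooled, r was 0.96 in callosum and -0.14 in nerve.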

How the data were processed

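The deposited table holds estimated counts (expected counts, of which 48.0% of values above 0 were whole within 0.001) per gene, made by the authors with kallisto, which the deposited table's own name states, on build mm10 per the submitters' processing notes. Its version, its transcript annotation and the strand setting of the counting were not stated in any source used here. RNA came from a stranded mRNA preparation per the labels' protocols. Counts were rounded and filtered with filterByExpr (minimum count 10, total 15), scaled by TMM and tested with the edgeR 4.0.16 quasi-likelihood F test in R 4.3.3. Each tissue was fitted apart for the genotype effect, and all 20 libraries were fitted in 4 groups for the tissue contrasts and the difference of effects. Benjamini-Hochberg adjustment ran over all genes tested. Tissue calls also needed 1 log2 unit. Levels are CPM of the library total, unscaled, and intervals are 95%. The SE was taken from the fold change and F. The biological coefficient of variation was 20.2% in nerve and 23.7% in callosum. Positions and exon lengths come from a GENCODE annotation of GRCm38, promoters from RefSeq. The likeness and spread values used log2 CPM with a prior count of 2. Related genes are those with the smallest p in each fixed list (3 per genotype comparison, 4 per tissue comparison) and the 5 most alike named genes. The exact permutation of marker relations was added after the data were seen. Alternatives were DESeq2 1.42.0 and limma 3.58.1 voom with sample quality weights (and, added after the data were seen, without), other scaling, filters and fits, subsets by the form of the sample number, replicate blocks and leaving out each library. The pipeline was tested on simulated data. The 10 genes and the lists were chosen with earlier results of these data known.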

Additional observations from a re-analysis of the deposited data

Results flagged for a closer look

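In 5 of the 40 sets of 1 gene in 1 group, a single library stood farther from the rest than Dixon's 95% value allows. Chance gives about 1 in 20 for independent sets. The 40 sets share libraries and their genes vary together, so that rate cannot judge their number. Fos was at 45.6 CPM in KO_ON_693452, apart from 21.2 to 26.7 CPM in the other knockout nerves. Egr1 was at 25.6 CPM in WT_ON_717652, apart from 7.88 to 8.81 CPM in the other wild-type nerves. In knockout callosum, KO_CCg_693452 was the library apart for Fosb at 12.7 CPM, Nr4a1 at 80.5 CPM and Arc at 215 CPM.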

How the results depend on the processing

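The counts of genes passing were 0 of 10 in both genotype comparisons and in the difference of effects under every alternative run, and 6 in the wild-type tissue contrast. In the knockout tissue contrast 6 passed, against 7 with upper quartile factors, 7 with sample numbers of 6 or 7 digits only, 5 with limma-voom with sample quality weights (6 without weights), and 5 to 6 leaving out each library. Whether a sample number found in both tissues marks 1 animal is not stated, and the check made here could not decide it. Over genes r was 0.13, 0.02 and -0.15 for 3 knockout numbers and -0.05 for 1 wild-type number. Over the 10 genes r was -0.37, 0.4 and 0.69 for the same knockout numbers in that order, and -0.06 for the wild-type number. Of 4 nerve libraries, 1 matched its own number best. With 4 numbers and tracts of unlike cell makeup, a low r cannot exclude a shared animal. The main tissue contrasts treated the libraries as unpaired. With a replicate block over the 3 knockout numbers 7 passed, with Nr4a1 at -1.24, and with the block as a random effect 7 passed. All genes called in callosum were 6 by edgeR, 174 by DESeq2, 2786 by limma-voom with sample quality weights, 3 by limma-voom without them (added after the data were seen), 41 in the 4-group fit, 10 with number format as a covariate, 2 and 0 within the number formats and 2 to 41 leaving out each library, with 41 only without WT_CCg_685232. In nerve they were 2 by edgeR, 35 by DESeq2, 3 in the 4-group fit, 1 without both knockout libraries whose numbers hold a letter, and 2 leaving out each library in turn. Signs turned for values that did not pass. In the callosum genotype comparison, Btg2 (-0.01) was 0.01 with DESeq2 size factors and with DESeq2, 0.02 with weighted limma-voom and 0.05 with 6 or 7 digits. Fos was 0.01 with 6 or 7 digits, and with 2 digits Nr4a1 was -0.14, Arc -0.20 and Ier2 -0.39. The difference of effects for Junb was -0.03 with weighted limma-voom, and Btg2 in the wild-type tissue contrast was 0.01 with 6 or 7 digits. Leaving out each library, callosum genotype values ran from -0.27 to 0.07 for Fos, 0.06 to 0.37 for Fosb, 0.04 to 0.31 for Junb, -0.01 to 0.37 for Egr2, -0.10 to 0.15 for Nr4a1, -0.11 to 0.20 for Arc, -0.11 to 0.12 for Ier2 and -0.10 to 0.05 for Btg2. Differences of effects ran from -0.10 to 0.56 for Fosb, -0.07 to 0.20 for Junb, -0.07 to 0.73 for Egr1 and -0.02 to 0.46 for Arc. Wild-type tissue values ran from -0.03 to 0.13 for Jun and -0.22 to 0.07 for Btg2. The cause was not tested. Of 1269 single-gene values under alternatives, 1214 kept their direction and side of the threshold. Fosb and Egr2 had the lowest counts in nerve, which limits their precision there.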
